A study of Mus musculus with 6 samples.

Results

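The transcripts of 10 genes that fill and empty the calcium store of the endoplasmic reticulum were followed in brown preadipocytes pretreated with fibroblast growth factor 8 (FGF8) and in the adipocytes that formed from them. They encode the 3 SERCA pumps (Atp2a1, Atp2a2 and Atp2a3), the ryanodine receptors Ryr1 and Ryr2, the IP3 receptors Itpr1, Itpr2 and Itpr3, the store sensor Stim1 and the plasma membrane channel Orai1, and are 10 of the 26264 gene symbols listed. The set was chosen by gene family, but with the knowledge that Atp2a3 was higher after FGF8 in these libraries. The FGF8 values of all 10 genes are therefore given as a description without a test. Tests are given for the differences between days, which the rule of the choice did not use. Earlier results of these data were known, however, when the genes and the tests were chosen.

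The cells were immortalized from the stromal vascular fraction of interscapular brown adipose tissue (iBAT) of wild-type Bl6N mice. They received 5.5 nM FGF8 for 48 h or were left untreated (the design text names a vehicle), and were harvested directly after the pretreatment (day 0) or on day 3 or day 9 of adipogenic differentiation. The labels write D7 for the last harvest and do not say how days were counted. It was taken as day 9, 2 days of induction plus 7 days, from the design text. Each of the 6 conditions is 1 library, all from 1 immortalized line, and the contrast of FGF8 with untreated cells on a given day has no replicate check. In the tests between days, the untreated and the FGF8 library of a day stand in place of replicates. Their growth protocol is written for primary white cells, whereas titles, characteristics and design text name immortalized brown cells.

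The libraries held 16403254 to 38551551 counts. The summed normalized counts of 7 brown adipocyte markers went from 459.8 (untreated) and 1687 (FGF8) at day 0 to 467749 and 544632 at day 9. At day 3 they were 199127 and 398026, of which Fabp4 alone made up 162482 and 334151. The day 0 sums held Ucp1 (0 and 1328), Fabp4 (164.5 and 178.0), Pparg (245.3 and 162.6) and Ppargc1a (48.5 and 15.4). They also held Plin1 (0 and 3.84), Adipoq (1.47 and 0) and Cidea (0 in both). The sum of 5 preadipocyte markers was lower in the FGF8 library of each day, with 130131 against 29266 at day 0, 37585 against 10254 at day 3 and 29729 against 6869 at day 9. Of 12 skeletal muscle markers 7 to 9 were at 0 in a library, among them Myod1, Ckm, Myh2, Myh3, Myh4 and Myh8 in all 6, and the list summed to 32.01 to 95.93. Of 5 blood cell markers, Adgre1 was at 0 in all 6 libraries and the sum was 43.53 to 144.1. Ptprc and Itgam had at most 3 raw counts in a library, and Cd68 had 35.85 to 100.8 normalized counts. Csf1r had 45.5, 35.6 and 43.3 normalized counts at day 0, 3 and 9 in untreated cells. In FGF8-pretreated cells it had 5.12, 6.32 and 10.6. The endothelial list (4 markers) summed to 199.5 to 1620 in the untreated and 34.39 to 71.69 in the FGF8 libraries. At day 0 its Kdr (1288 untreated and 7.68 FGF8) and Tek (326.1 and 42.3) were lower after FGF8. Pecam1 (1.47 and 12.8) and Cdh5 (4.41 and 8.96) were higher there. The smooth muscle list (4 markers) summed to 2315 to 5517 in the untreated and 834.7 to 1537 in the FGF8 libraries. In bulk RNA, fewer cells of a type and less RNA per cell cannot be told apart, and the part of these shifts in the values below was not tested.

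SERCA pumps use ATP to carry calcium from the cytosol into the endoplasmic reticulum. IP3 receptors and ryanodine receptors let it out again, the former when phospholipase C has produced inositol trisphosphate. When the store runs low, STIM1 in the reticulum membrane opens ORAI1 in the plasma membrane. In brown and beige fat, pumping of calcium by SERCA that is balanced by leak through the release channels consumes ATP and is known as a source of heat besides uncoupling protein 1, and SERCA1 and SERCA2 are the pumps usually discussed in muscle and fat, whereas SERCA3 is best known from blood, epithelial and endothelial cells.

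Promoter sequence was read for the 3 members with the widest range of transcript levels among those above 100 normalized counts in some library, Atp2a3 and Itpr2, which were high at day 9, and Itpr3, which was low there. The sequences are RefSeq entries (table of assembly GRCm38.p6) of 250 bases before to 50 bases after the start of the gene in RefSeq. They are on the sense strand and were placed in GRCm39 by their exact sequence. The windows of Itpr3 and Atp2a1 lie wholly inside the gene as placed by GENCODE, which starts at 27275971 (plus strand) and 126063423 (minus strand). Their motif counts are thus not for the GENCODE start. Capitals mark GGGCGG or its reverse complement CCGCCC, the core of a GC box.
Atp2a3 (chr11:72851745-72852044, plus strand): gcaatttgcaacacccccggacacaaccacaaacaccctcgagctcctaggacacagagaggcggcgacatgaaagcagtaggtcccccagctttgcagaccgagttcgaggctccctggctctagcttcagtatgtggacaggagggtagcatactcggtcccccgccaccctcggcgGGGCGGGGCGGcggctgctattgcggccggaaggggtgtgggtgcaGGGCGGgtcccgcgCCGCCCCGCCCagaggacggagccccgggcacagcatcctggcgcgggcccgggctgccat
Itpr2 (chr6:146403672-146403971, minus strand): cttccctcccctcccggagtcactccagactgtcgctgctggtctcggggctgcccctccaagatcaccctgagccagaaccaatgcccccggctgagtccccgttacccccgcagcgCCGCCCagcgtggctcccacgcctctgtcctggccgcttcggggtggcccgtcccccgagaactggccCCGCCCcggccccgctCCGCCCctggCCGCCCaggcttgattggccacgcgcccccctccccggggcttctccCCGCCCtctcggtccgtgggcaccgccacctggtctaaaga
Itpr3 (chr17:27276028-27276327, plus strand): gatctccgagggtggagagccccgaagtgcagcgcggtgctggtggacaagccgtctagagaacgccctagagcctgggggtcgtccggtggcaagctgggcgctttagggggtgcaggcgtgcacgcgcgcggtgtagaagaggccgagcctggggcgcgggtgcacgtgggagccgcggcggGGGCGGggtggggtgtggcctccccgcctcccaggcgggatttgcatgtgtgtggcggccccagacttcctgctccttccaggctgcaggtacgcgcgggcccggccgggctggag
The Atp2a3 window held the motif 5 times (some of them overlapping), the Itpr2 window 5 times and the Itpr3 window once, and 35.7% of 32851 promoters in the table held it at least once. With 68.3%, 73.3% and 72.3% GC, all 3 lay above the median promoter (52.7%). Of 8 members with an entry, Stim1 held the motif 8 times, Orai1 3 times, Ryr1 and Ryr2 2 times each and Atp2a1 not at all. TATAAA was in none of the 8 windows (13.6% of all promoters), CACGTG in that of Itpr3 alone (7.15%) and TGACGT in that of Orai1 alone (7.51%), searched on both strands.

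Among the SERCA pumps, Atp2a3, which encodes SERCA3, went from nearly no transcripts in preadipocytes to 0.426 times the counts of Atp2a2 in untreated and 0.963 times in FGF8-pretreated cells at day 9. It lies on chromosome 11 (72851990 to 72883870, plus strand, GRCm39). Its raw counts at day 0, 3 and 9 were 4, 1149 and 7052 in untreated and 70, 5754 and 12474 in FGF8-pretreated cells. After division by the size factor of the library this was 5.88, 1462 and 5006 normalized counts in untreated cells and 89.6, 4039 and 10141 after FGF8. Both treatments were lowest at day 0 and highest at day 9, and the FGF8 library was the higher one on each day. The FGF8 library was 15.3-fold higher at day 0 (95% counting interval 5.70 to 57.5), 2.76-fold at day 3 (2.59 to 2.95) and 2.03-fold at day 9 (1.97 to 2.09). The lead of the FGF8 library was thus smaller at each later harvest on the ratio scale, while the difference in normalized counts was larger. These intervals cover counting error only and not the spread between cultures.

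Between day 0 and day 3, Atp2a3 rose by 6.13 on the log2 scale over both treatments (SE 0.631, adjusted p = 0.00422, quasi-likelihood test of edgeR, Benjamini-Hochberg adjustment, threshold 0.05, 2 residual degrees of freedom). It was called under 10 of 10 alternatives, with adjusted p between 1.79e-24 and 0.0307. Between the 2 libraries of 1 treatment it was 249-fold higher at day 3 than at day 0 in untreated cells (97.0 to 915, from 4 counts at day 0) and 45.1-fold in FGF8-pretreated cells (35.6 to 57.9). It was higher by a further 1.56 at day 9 (SE 0.489), with an adjusted p of 0.178 in edgeR that passed the threshold under 3 of 10 alternatives (0.000411 to 0.712). Without the untreated day 0 library or without the FGF8 day 0 library, the change was 1.52 and was called. This comparison shares the day 3 libraries with the former one.

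Atp2a2, which encodes the housekeeping pump SERCA2, had the most counts of the 3 pumps in all 6 libraries. Its normalized counts were 8646, 11351 and 11755 at day 0, 3 and 9 in untreated cells and 11920, 11600 and 10531 after FGF8, the smallest ratio of highest to lowest library among the 8 members that passed the filter of the test. The FGF8 to untreated difference was 0.46 on the log2 scale at day 0 (counting interval 0.42 to 0.51), 0.03 at day 3 (-0.01 to 0.07) and -0.16 at day 9 (-0.19 to -0.13). With total counts in place of size factors, the day 3 value was -0.08. The difference between day 0 and day 3 was 0.23 (SE 0.225, adjusted p = 0.433 in edgeR). That between day 3 and day 9 was -0.06 (SE 0.225, adjusted p = 0.893 in edgeR). Neither passed the threshold, and none of 10 alternatives called either. Exons of Atp2a2 overlap those of Anapc7 on the opposite strand. Anapc7 had 1428, 1420 and 1390 normalized counts in untreated and 1867, 1680 and 1520 in FGF8-pretreated cells. Part of the Atp2a2 counts may belong to it if strand was not used in counting.

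Atp2a1 encodes SERCA1, the pump of fast skeletal muscle. Its raw counts were 15, 33 and 67 in untreated and 7, 42 and 117 in FGF8-pretreated cells at day 0, 3 and 9, or 22.03, 42.0 and 47.6 against 8.96, 29.5 and 95.1 normalized counts. At day 9 the FGF8 library was 2.00-fold higher by ratio (1.47 to 2.74) and 0.99 higher on the log2 scale with the pseudocount of 1, just inside the 2-fold limit. The day 0 pair had a mean below 20 normalized counts and its interval included 0 (-2.83 to 0.08). The change from day 0 to day 3 (1.28, SE 0.682) had an adjusted p of 0.179 in edgeR, and it was called without the untreated day 0 library (2.20). The gene shared 4 stretches of 50 bases with Atp2a3, so that part of its few counts may belong there at any strand setting. Its exons overlap those of Rabep2 on the opposite strand (457.0 to 766.2 normalized counts). Counts may belong to Rabep2 too if strand was not used in counting.

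**Figure D1:**
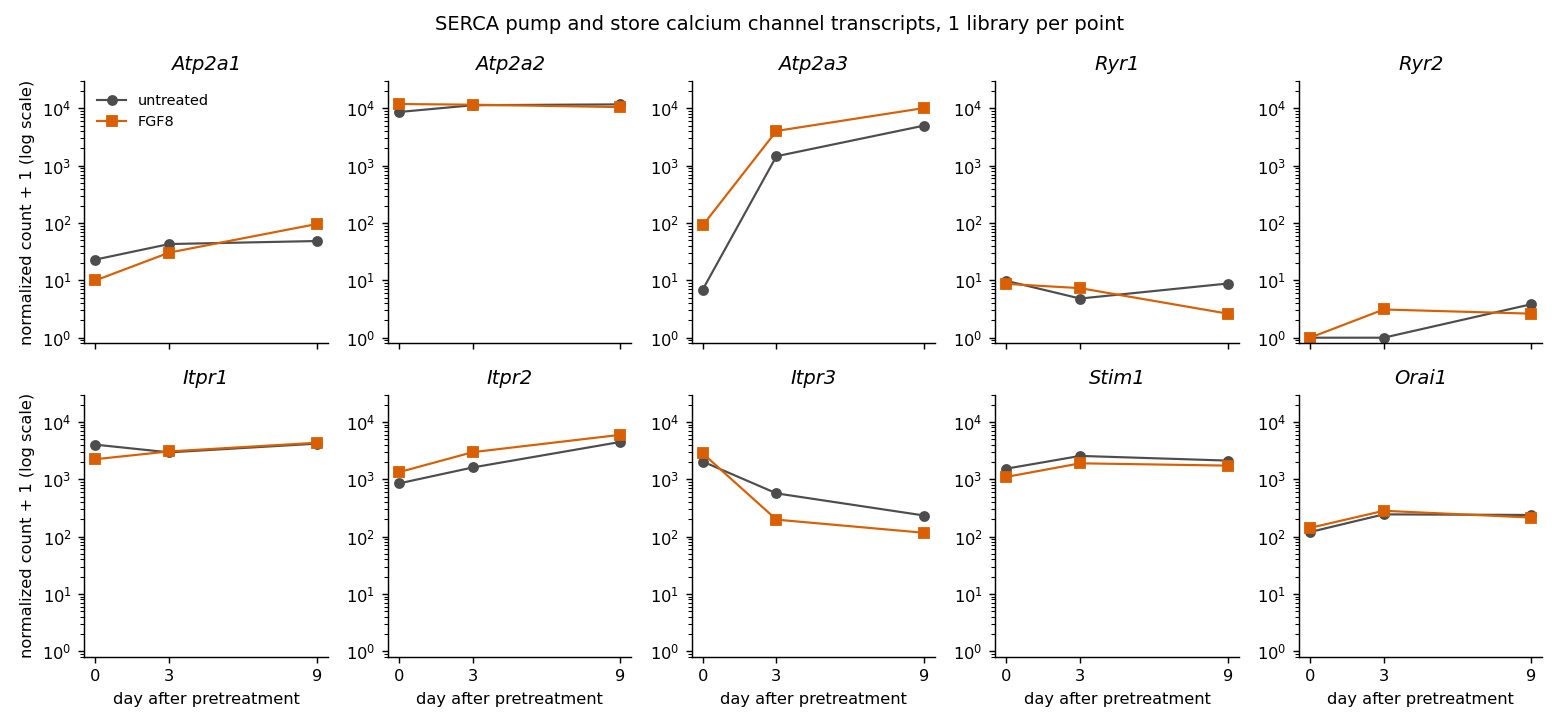
Normalized counts plus 1 (log scale) of the 10 genes against the day of harvest, with 1 library per point, untreated cells as grey circles and FGF8-pretreated cells as orange squares. Atp2a3 went from 5.88 to 5006 (untreated) and from 89.6 to 10141 (FGF8), Itpr3 went the opposite way, and Ryr1 and Ryr2 stayed near the floor.

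The makeup of the SERCA pool differed between days and between treatments. Per length of the canonical transcript, Atp2a3 made up 0.0664%, 11.2% and 29.4% of SERCA transcripts in untreated cells at day 0, 3 and 9, and 0.731%, 25.4% and 48.3% after FGF8. The share after FGF8 at day 3 thus lay between those of untreated cells at day 3 and day 9. As shares of counts, the values at day 9 were 29.8% (exact binomial interval 29.2 to 30.4) and 48.8% (48.2 to 49.4). When the union of annotated exons was used as length, Atp2a3 was 49.1% of the pool in untreated and 68.4% in FGF8-pretreated cells at day 9, since the exons of Atp2a2 add up to 12239 bases and its canonical transcript to 4438, so the share depends on which isoforms were made. The sum of the 3 pump transcripts was 8674, 12856 and 16808 normalized counts in untreated and 12019, 15669 and 20767 in FGF8-pretreated cells. From day 0 to day 3 in untreated cells Atp2a2 added more to this sum than Atp2a3, and Atp2a3 added more from day 3 to day 9 and at both steps after FGF8.

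**Figure D2:**
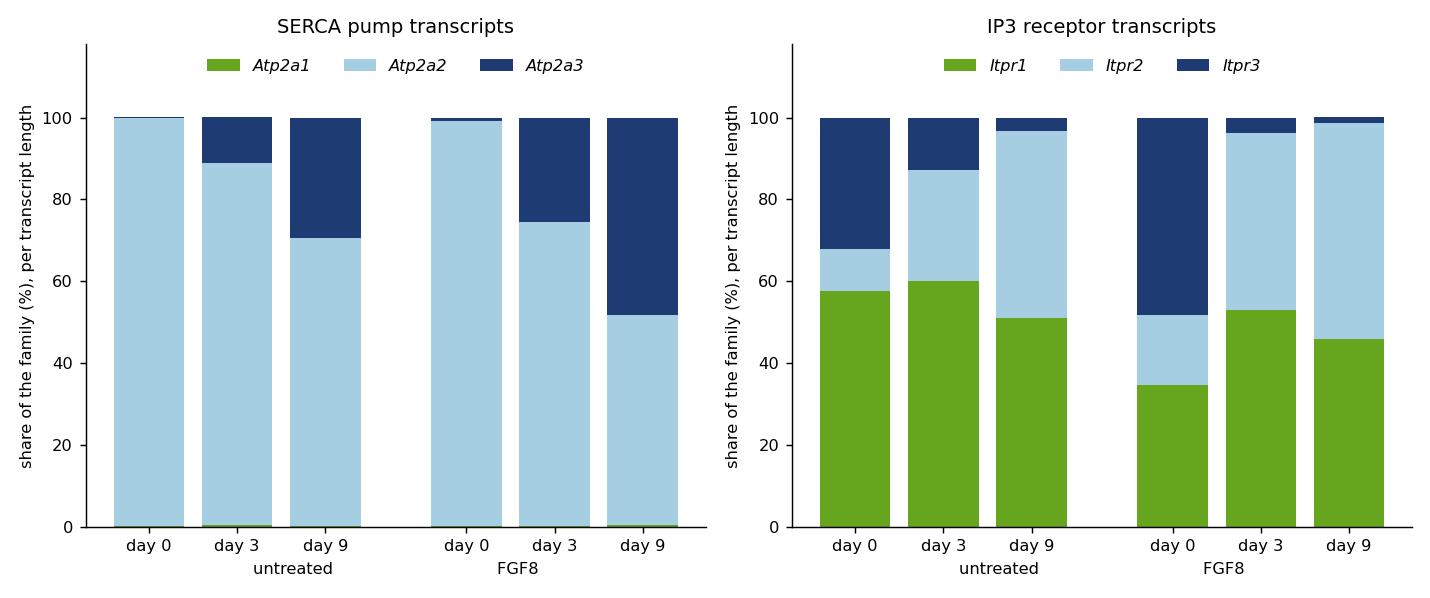
Share in percent, per transcript length, of each SERCA pump (left) and each IP3 receptor (right) within its family in the 6 libraries. Atp2a3 took 29.4% (untreated) and 48.3% (FGF8) of the SERCA pool at day 9, and Itpr3 went from 32.2% and 48.2% of the IP3 receptor pool at day 0 to 3.12% and 1.34% at day 9.

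Transcripts of the ryanodine receptors, the release channels of striated muscle, were hardly detected. Ryr1 had 6, 3 and 11 raw counts in untreated and 6, 9 and 2 in FGF8-pretreated cells at day 0, 3 and 9. Ryr2 had 0, 0 and 4 counts in untreated and 0, 3 and 2 in FGF8-pretreated cells, where a count of 0 allows up to 3 counts (2.11 to 4.41 normalized counts, depending on the library). Neither passed the filter of the test or reached a mean of 20 normalized counts in a pair, so neither was tested. At day 9, the ratio for Ryr1 (11 against 2 counts) was 0.208 with a counting interval of 0.0224 to 0.954, and the intervals of the other ratios that could be formed included 1. The related Ryr3 had 2 to 7 counts in a library.

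The IP3 receptors exchanged places. Itpr3 was high in preadipocytes and low in adipocytes, Itpr2 the reverse, and Itpr1 remained within 2237 to 4331 normalized counts. Itpr3 lies on chromosome 17 (27275971 to 27343866, plus strand) and encodes the IP3 receptor found in many secretory epithelia. Its normalized counts were 2039, 566.4 and 232.1 at day 0, 3 and 9 in untreated cells and 2831, 196.5 and 115.4 after FGF8. The FGF8 library was the higher one at day 0 and the lower one at both later days. The difference was 0.47 on the log2 scale at day 0 (0.38 to 0.57), -1.52 at day 3 (-1.75 to -1.31) and -1.0 at day 9 (-1.30 to -0.72), or 1.39-fold higher, 2.88-fold lower and 2.01-fold lower.

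Itpr3 fell by 2.83 between day 0 and day 3 over both treatments (SE 0.536, adjusted p = 0.0144, edgeR). It was called under 9 of 10 alternatives (1.08e-07 to 0.0865). Without the FGF8 day 3 library the change was -2.25 and the adjusted p 0.0865. Within a treatment, the day 3 library was 3.6-fold lower than the day 0 library in untreated cells and 14.4-fold lower in FGF8-pretreated cells. Its difference between day 3 and day 9 was -1.10 (SE 0.505, adjusted p = 0.287 in edgeR). It was called under 2 of 10 alternatives, those without the untreated and without the FGF8 day 0 library (-1.07 in both). Exons of Itpr3 overlap those of Uqcc2 on the opposite strand, which had 1196, 668.2 and 910.0 normalized counts in untreated and 1335, 884.4 and 895.9 in FGF8-pretreated cells.

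Itpr2 encodes the receptor subtype with the highest affinity for IP3 and lies on chromosome 6 (146009797 to 146403721, minus strand). Its normalized counts were 844.6, 1606 and 4475 in untreated and 1328, 2970 and 5962 in FGF8-pretreated cells. The FGF8 library was the higher one on each day, by 0.65 on the log2 scale at day 0 (0.50 to 0.80), 0.89 at day 3 (0.80 to 0.98) and 0.41 at day 9 (0.37 to 0.46), under the 2-fold limit throughout. Itpr2 rose by 1.11 between day 0 and day 3 (SE 0.168, adjusted p = 0.00861, edgeR, called under 8 of 10 alternatives, 0.00013 to 0.105). The call was lost without the FGF8 day 3 library (0.86) and without treatment in the fit (1.13, adjusted p = 0.0708 in edgeR). Day 9 was higher than day 3 by 1.22 (SE 0.168), with an adjusted p of 0.0688 in edgeR, and was called under 4 of 10 alternatives (2.03e-05 to 0.433), among them the fits without the untreated and without the FGF8 day 0 library (1.21 in both).

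Itpr1, the receptor best known from neurons, had 4014, 2944 and 4177 normalized counts in untreated and 2237, 3056 and 4331 in FGF8-pretreated cells. The treatments stood apart at day 0, where the FGF8 library was 1.79-fold lower (log2 -0.84, -0.93 to -0.76), and differed by 0.05 at day 3 (-0.02 to 0.13) and at day 9 (0.00 to 0.11). With total counts the day 3 value was -0.05, and with size factors computed within the pair the day 9 value was -0.01. From day 0 to day 3 the untreated library went down by 0.45 and the FGF8 library up by 0.45, so the fitted change over both was 0.04 (SE 0.274, adjusted p = 0.915 in edgeR). For day 3 to day 9 it was 0.48 (SE 0.272, adjusted p = 0.366), which was called without the untreated day 0 library (0.48).

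As shares of the family per transcript length, Itpr1, Itpr2 and Itpr3 were 57.7%, 10.1% and 32.2% in untreated preadipocytes at day 0, and 34.6%, 17.2% and 48.2% after FGF8. At day 9 they were 51.1%, 45.7% and 3.12% in untreated and 45.9%, 52.8% and 1.34% in FGF8-pretreated cells. The most abundant receptor was thus Itpr3 directly after FGF8 and Itpr2 in the adipocytes formed from these cells, against Itpr1 in untreated cells at both times. By exon union length Itpr2 was the most abundant one at day 9 in untreated cells too (52.8% against 43.5% for Itpr1). The sum of the 3 transcripts was 6898, 5116 and 8884 normalized counts in untreated and 6395, 6222 and 10408 in FGF8-pretreated cells, with a smaller ratio of highest to lowest than Itpr2 or Itpr3 alone.

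For store-operated entry, both transcripts rose between day 0 and day 3. Stim1 had 1528, 2553 and 2115 normalized counts in untreated and 1097, 1896 and 1729 in FGF8-pretreated cells. The FGF8 library was the lower one on each day, with differences of -0.48 (-0.61 to -0.35), -0.43 (-0.51 to -0.35) and -0.29 (-0.37 to -0.21) on the log2 scale. The change between day 0 and day 3 was 0.83 (SE 0.151, adjusted p = 0.0133, edgeR, called under 5 of 10 alternatives, 0.00209 to 0.111). The call was lost without the untreated day 3 library (0.79), the FGF8 day 3 library (0.79), the untreated day 9 library (0.75) or the FGF8 day 9 library (0.75). It was lost without treatment in the fit too (0.83, adjusted p = 0.0717 in edgeR), with the direction kept each time. Between day 3 and day 9 the difference was -0.22 (SE 0.150, adjusted p = 0.438).

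Orai1 had 119.0, 243.1 and 237.1 normalized counts in untreated and 140.8, 280.8 and 213.8 in FGF8-pretreated cells. The counting interval of the FGF8 to untreated difference included 0 on each day (0.24 at day 0, 0.21 at day 3 and -0.15 at day 9), so this depth could not show one. Orai1 rose by 1.07 between day 0 and day 3 (SE 0.266, adjusted p = 0.0281, edgeR, called under 6 of 10 alternatives, 0.0145 to 0.235). The call was lost without the untreated day 3 (1.14), FGF8 day 3 (0.92), untreated day 9 (1.00) or FGF8 day 9 library (1.00). In each treatment the day 3 library was about 2-fold above the day 0 library (2.04 in untreated and 1.99 after FGF8). Day 9 differed from day 3 by -0.23 (SE 0.259, adjusted p = 0.637).

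**Figure D3:**
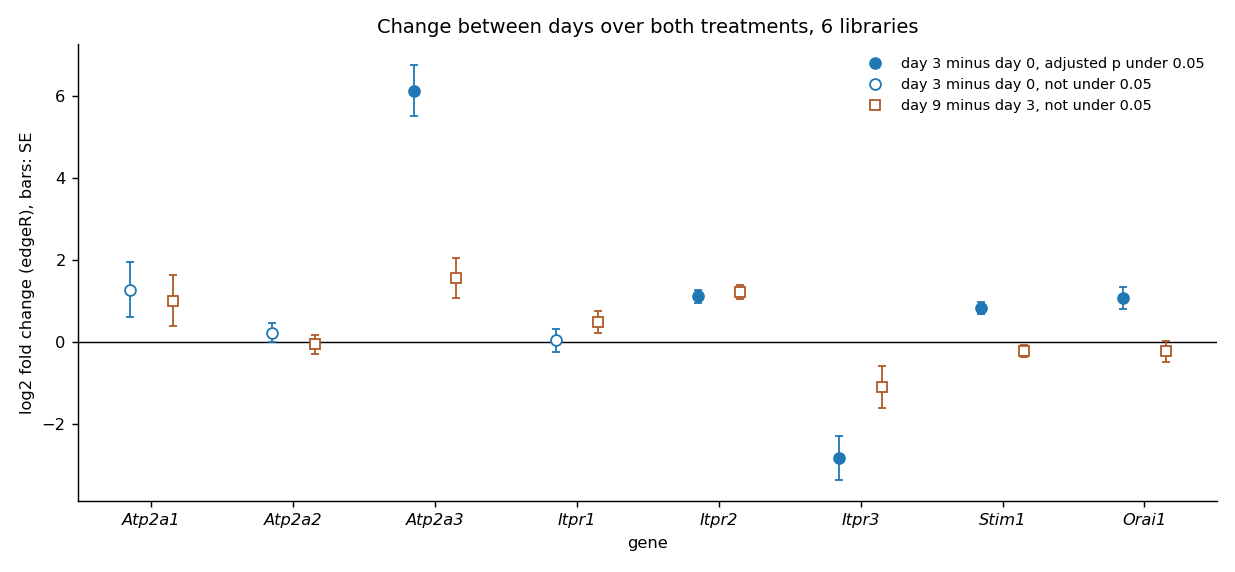
Log2 fold change from edgeR over both treatments with its SE as bars, for 8 genes between day 0 and day 3 (circles) and between day 3 and day 9 (squares). Filled symbols mark an adjusted p under 0.05, which 5 genes had between day 0 and day 3 and none between day 3 and day 9.

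Of the 8 members that passed the filter of the test, 4 rose between day 0 and day 3 (Atp2a3, Itpr2, Stim1 and Orai1) and 1 fell (Itpr3), where 26.2% of 14569 genes rose and 19.8% fell. From day 3 to day 9 none was called in edgeR, with 0.0618% of all genes higher and 0.00686% lower. At an unadjusted p under 0.05 there were 2 (Atp2a3 and Itpr2), and DESeq2 called 2. Of the members, 1 was called between day 0 and day 3 without the FGF8 day 3 library and 6 without the untreated day 0 library.

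By a rule of 2-fold or more, applied where the pair averaged 20 or more normalized counts, 1 of the 7 members that passed was higher after FGF8 at day 0 (Atp2a3) and none was lower, where 7.27% of all genes were higher and 10.8% lower. At day 3 it was 1 higher (Atp2a3) and 1 lower (Itpr3) of 8 members, with 3.80% of genes higher and 12.1% lower, and the same holds for day 9, with 1.12% higher and 8.74% lower. Nothing is read from these counts, since Atp2a3 was selected on this contrast. At day 9 both genes stood close to the limit. Atp2a3 (1.02) came to 0.95 with size factors computed within the pair, and Itpr3 (-1.0) came to -0.97 at the upper end of its alternatives. With TMM, Atp2a1 (1.02) passed the limit and Itpr3 (-0.97) did not, so the count was the same with a different member. Over the alternatives Atp2a3 lay between 3.12 and 3.82 at day 0 and between 1.36 and 1.47 at day 3.

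**Figure D4:**
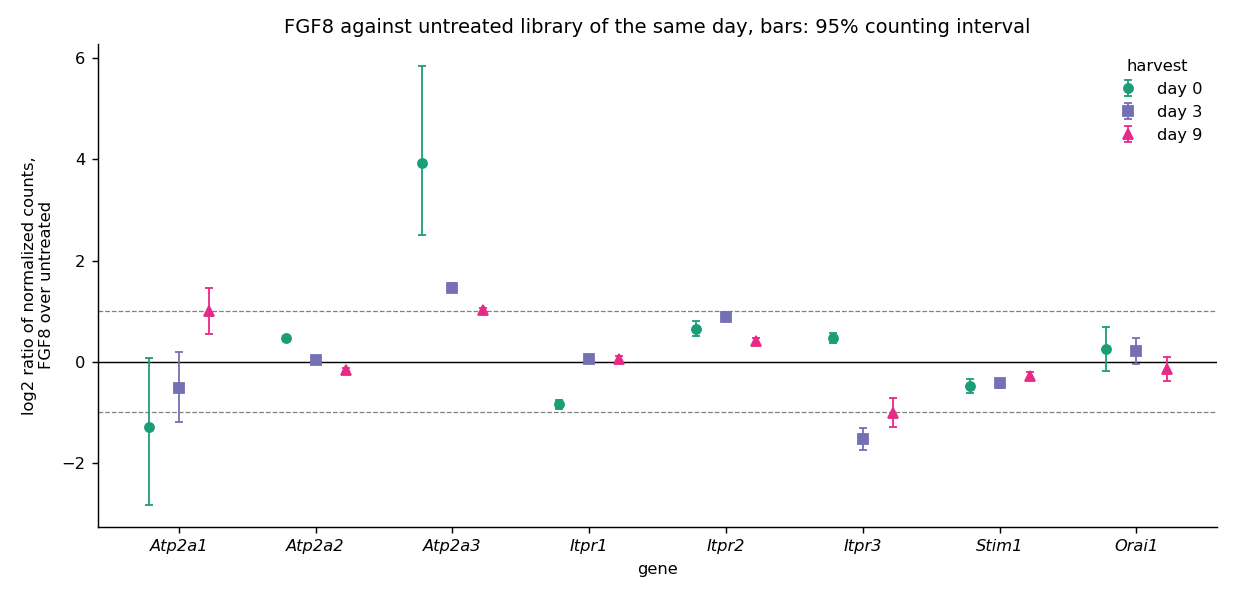
Log2 ratio of normalized counts, FGF8 over untreated library of the same day, for 8 genes at day 0 (circles), day 3 (squares) and day 9 (triangles), with 95% counting intervals as bars and dashed lines at 2-fold. Atp2a3 was above 0 on each day, Itpr3 was above 0 at day 0 and below it at day 3 and day 9, and Ryr1 and Ryr2 are left out for their few counts.

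By level per kb of canonical transcript, the order of the 10 genes differed between the first and the last condition. In untreated preadipocytes at day 0, Atp2a2 led with 1948 normalized counts per kb, followed by Itpr1 (406.5), Stim1 (343.7), Itpr3 (226.8), Itpr2 (71.4), Orai1 (59.9), Atp2a1 (5.32), Atp2a3 (1.30) and Ryr1 (0.574), with Ryr2 at 0. In FGF8-pretreated cells at day 9, the order was Atp2a2 (2373), Atp2a3 (2241), Itpr2 (504.3), Itpr1 (438.5), Stim1 (389.1), Orai1 (107.7), Atp2a1 (23.0), Itpr3 (12.8), Ryr1 (0.106) and Ryr2 (0.0965). These conditions differ in day and in treatment, and Atp2a3 was in the 2nd place in untreated cells at day 9 too (1106, behind Atp2a2 at 2649). Per kb of exon union, Atp2a3 (1894) stood above Atp2a2 (860.4) in FGF8-pretreated cells at day 9. In untreated cells at day 9 it stood below (935.1 against 960.4), so the first place depends on the length used. With 1 library per condition, it cannot be said which neighbours in these orders differ beyond the spread between cultures.

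Over the 6 libraries, which share 2 treatments and 3 days, log2 normalized counts of Atp2a3 correlated with those of Itpr2 (Pearson r = 0.916), Orai1 (0.909) and, inversely, Itpr3 (-0.916), and less with Stim1 (0.569), Atp2a2 (0.628) and Itpr1 (0.232). Among the 13256 genes that averaged 20 or more, those most like Atp2a3 were Gm36117 (r = 0.9979), Kdm2b (0.9977), Cahm (0.9972), Ero1b (0.9971) and Foxq1 (0.9968). Gm36117 ranged over 5.86 on the log2 scale, Foxq1 over 5.16, Cahm over 3.09 and Ero1b, which encodes a disulfide oxidase of the endoplasmic reticulum, over 2.17, while Kdm2b ranged over 0.60, so the likeness is one of shape and not of size. These r are a description of 6 points.

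The wider machinery was followed through 97 other genes of calcium handling, of which 95 were listed in the libraries. Of the peptides that inhibit SERCA, sarcolipin (Sln) had 0 counts in all 6 libraries, phospholamban (Pln) 0 to 12 and Mrln 0 to 4, while the inhibitors Arln and Erln were not analysed here. The activating peptide Strit1 had 0 to 1 counts. S100a1, a calcium-binding protein that stimulates SERCA2 and ryanodine receptors in muscle, had 1383 normalized counts in untreated and 2785 in FGF8-pretreated cells at day 3 (log2 1.01, 0.91 to 1.11). At day 9 it had 2240 and 3090. The remaining SERCA partners tested, Vmp1, Tmem64 and Tmx1, lay between -0.63 and 0.71 on each day.

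By the same rule, 4 of 64 other calcium genes were higher and 7 lower after FGF8 at day 0, 2 of 65 higher and 9 lower at day 3, and 1 of 66 higher and 7 lower at day 9. These are 6.25% and 10.9% at day 0 (7.27% and 10.8% of all genes), 3.08% and 13.8% at day 3 (3.80% and 12.1%) and 1.52% and 10.6% at day 9 (1.12% and 8.74%), each near the share of all genes. The medians were 0.07, -0.24 and -0.09 on the log2 scale, beside 0.05, 0.08 and 0.08 over all genes. Over the 3 days, edgeR called 1 of 70 (17 at an unadjusted p under 0.05 and 14 in DESeq2), where 0.0206% of all genes were higher and 1.25% lower. It was Rcn3, which encodes reticulocalbin 3 of the secretory pathway. Its normalized counts were 5968, 6814 and 5334 in untreated and 2001, 3015 and 2067 in FGF8-pretreated cells, so that all 3 FGF8 libraries lay below all 3 untreated ones. Rcn3 fell by 1.39 (SE 0.14, adjusted p = 0.0429, edgeR, called under 5 of 10 alternatives, 4.29e-11 to 0.734). The call was lost without any 1 of the 4 libraries of day 3 and day 9 (-1.47 without untreated day 3, -1.50 without FGF8 day 3, -1.40 without either day 9 library). It was lost without day in the fit too (-1.38).

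Rcn3 belongs to the calcium-binding proteins of the reticulum, of which 5 of 14 tested were 2-fold or more lower after FGF8 at day 3 and none was higher (12.1% and 3.80% of all genes), with a median of -0.70. They were Rcn1 (-1.12), Rcn3 (-1.18), Nucb1 (-1.18), Nucb2 (-1.14) and Selenon (-1.06). Calreticulin (Calr), the main calcium buffer of the store, had 42272 normalized counts in untreated and 26602 in FGF8-pretreated cells at day 3 (-0.67), whereas the chaperone Hspa5 had 20945 and 19913 (-0.07). The median of the group was -0.34 at day 0 and -0.47 at day 9, with 1 and 2 of 14 genes 2-fold or more lower. The summed preadipocyte markers were lower after FGF8 on the same days, and their part in this was not tested.

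Of the genes of mitochondrial calcium uptake, 1 of 11 was 2-fold or more higher at day 3 (Letm1) and 1 lower (Mcub), 9.09% each beside 3.80% and 12.1% of all genes, with a median of 0.60. Letm1, a cation exchanger of the inner mitochondrial membrane, had 827.0, 6617 and 11518 normalized counts in untreated and 1111, 14046 and 12301 in FGF8-pretreated cells (log2 1.09 at day 3, 1.04 to 1.13). Mcub, a subunit that dampens the mitochondrial calcium uniporter, had 309.9, 351.3 and 269.0 against 382.8, 75.1 and 91.9 (-2.21 at day 3, -2.56 to -1.90). Like Itpr3, Mcub was higher after FGF8 at day 0 and lower at both later days. The pore subunit Mcu itself differed by 0.84, 0.13 and 0.17.

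**Figure D5:**
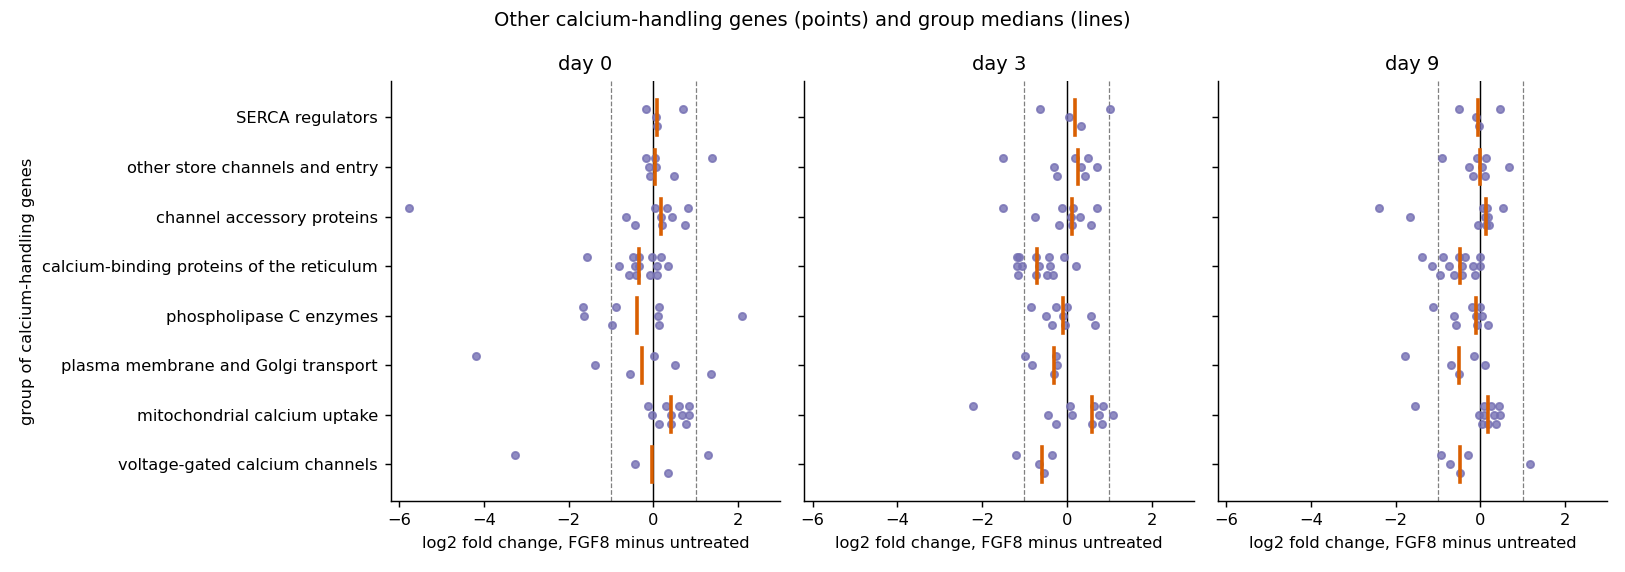
Log2 fold change, FGF8 minus untreated, of the other calcium-handling genes that averaged 20 or more normalized counts, by group and day, with each gene as a point, the group median as an orange line and dashed lines at 2-fold. At day 3 the calcium-binding proteins of the reticulum had a median of -0.70 and the genes of mitochondrial uptake one of 0.60.

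At day 3, 1 of 8 other store channels and entry genes, 1 of 10 channel accessory proteins and 1 of 4 voltage-gated channels were 2-fold or more lower (12.1% of all genes), and none of 9 phospholipase C enzymes or 5 pumps and exchangers of the plasma membrane and Golgi was. Of 8 phospholipase C enzymes at day 0, 2 were lower (Plcb4, -1.65, and Plce1, -1.63) and 1 was higher (Plcg2). Of 6 pumps and exchangers of the plasma membrane and Golgi, 2 were lower at day 0 (Atp2b4 and Slc8b1, the latter by -1.37) and 1 was higher (Slc8a3). Among all genes, 10.8% were lower and 7.27% higher at day 0. At day 0, Irag1 (listed under its older symbol Mrvi1), whose product restrains IP3 receptors under cGMP kinase, had 262.9 normalized counts in untreated and 3.84 in FGF8-pretreated cells (3 raw counts, log2 -5.77, -8.39 to -4.53), and it was lower at day 3 (-1.51) and day 9 (-2.39) too. The plasma membrane calcium pump Atp2b4 differed by -4.19 at day 0 (204.2 against 10.2) and the T-type channel Cacna1g by -3.27 (428.9 against 43.5). Higher at day 0 were Plcg2 (2.09, 0.84 to 3.97), the cation channel Trpc1 (1.38) and the exchanger Slc8a3 (1.37), the highest of them at 112.7 normalized counts. So was the voltage-gated channel Cacna1c (1.285, 158.6 against 387.9 normalized counts), which was lower after FGF8 at day 3 (-1.199). At day 3 Orai2, a relative of Orai1 that forms less active channels, had 302.9 against 106.7 (-1.50). At day 9 Cacna1b (1.16) was higher, and the exchanger Slc8a1 (-1.77) and Fkbp1b (-1.67), which binds release channels, were lower after FGF8. All 3 had under 100 normalized counts in either library.

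Between day 0 and day 3, 15 of 70 other calcium genes rose and 15 fell, 21.4% in each direction where 26.2% of all genes rose and 19.8% fell. The group medians lay between -1.01 for pumps and exchangers of the plasma membrane and Golgi and 0.47 for mitochondrial uptake, beside 0.00 over all genes. Without the FGF8 day 3 library 3 rose and 2 fell, and without the untreated day 3 library 7 and 7. The largest increases among those called were Plcb2 (5.76, SE 1.04, adjusted p = 0.013), Letm1 (3.42, SE 0.29, 0.00324) and Trpc1 (3.40, SE 0.27, 0.00314), and the largest decreases Fkbp1b (-3.35, SE 0.44, 0.00647), Slc8a1 (-2.38, SE 0.46, 0.0149) and Nucb2 (-2.01, SE 0.21, 0.00442), all from edgeR. Letm1, Trpc1 and Nucb2 were called under 10 of 10 alternatives. Plcb2, with 0 and 1 counts at day 0, lost the call without the FGF8 day 3 library (4.71), and Fkbp1b (-3.20 and -3.61) and Slc8a1 (-2.33 and -2.52) without the untreated or the FGF8 day 3 library. Slc8a1 lost it without treatment in the fit too (-2.31, adjusted p = 0.0675). From day 3 to day 9, edgeR called 0 of 70, with 19 at an unadjusted p under 0.05 and 6 in DESeq2.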

How the data were processed

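RNA of 6 libraries of immortalized brown (pre)adipocytes was sequenced in pairs of 150 bases after stranded mRNA library preparation. Reads were trimmed (TrimGalore), aligned to GRCm39 or mm39 (HISAT2) and counted per gene (featureCounts) by the authors, who deposited the raw counts. Tool versions, annotation and the strand setting of the counting are not given in the sources used here. Groups were taken from the sample labels. The 10 genes, the lists and the tests were chosen with earlier results of these data known.

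Normalized counts are counts over size factors from DESeq2 (1.42.0), computed from all 6 libraries. A log2 fold change within a day is the difference of log2(normalized count + 1), which understates changes of low genes. The 2-fold rule used this value. Ratios printed as fold between 2 libraries are of normalized counts with nothing added. The 95% intervals belong to that ratio or its log2, and were computed from both counts by the exact Clopper-Pearson method. For low genes they are thus not centered on the printed log2 value. Intervals and the floor of 3 counts cover counting error only. A gene counted as different at 2-fold or more where the pair averaged 20 or more normalized counts. Days were compared with the quasi-likelihood test of edgeR (4.0.16, TMM, filterByExpr, treatment and day as terms, 2 residual degrees of freedom, Benjamini-Hochberg adjustment over 14569 genes, threshold 0.05). Standard errors follow from F and the fold change. The p-values rest on the spread left after the mean difference between treatments and between days was removed. With 1 library per condition, an FGF8 effect that differed between days is part of this spread. The procedure was tested on simulated data without an FGF8 effect, which does not check the use of the treatments in place of replicates.

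Of the symbols, 23897 (91.0%) were found in GENCODE M39, which gave positions and lengths. Named genes are all 10 members, in each comparison up to 3 other calcium genes per direction with the largest fold past the rule, and the 5 genes most like Atp2a3. Sln, Pln, Mrln, Strit1, Ryr3, Vmp1, Tmem64, Tmx1, Calr, Hspa5, Mcu, Rcn1, Nucb1, Selenon, Cacna1c, Plcb4, Plce1 and Slc8b1 were added to describe their groups. Alternatives were size factors by TMM, by total counts or within the pair, pseudocounts of 0.5 and 5, folds of 1.5 and 4, no filter or an average of 100, the Wald test of DESeq2, DESeq2 size factors in edgeR, no filter in edgeR, leaving out treatment, day or each library, and, chosen after seeing the data, exon union in place of transcript length. Python 3.11.15, R 4.3.3, scipy 1.17.1 and pandas 2.3.3 were used.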

Additional observations from a re-analysis of the deposited data

Results flagged for a closer look

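The FGF8 to untreated difference had opposite signs at different days for 2 of the 10 genes with counting intervals that excluded 0, which was not tested, as each day holds 1 library per treatment. On the log2 scale, the Atp2a2 difference was 0.46 directly after FGF8 and -0.16 at day 9. For Itpr3 it was 0.47 directly after FGF8, -1.52 at day 3 and -1.0 at day 9.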

How the results depend on the processing

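Treatment and day were terms of the fit, so days were compared within a treatment and treatments within a day, while no block by replicate number could be made, as each condition is 1 library. The count of the 10 genes 2-fold different after FGF8 at day 0 (1) was 0 with a mean of at least 100, 2 without the filter and 3 with the 1.5-fold rule. At day 3 (2) it was 0 with the 4-fold rule, and at day 9 (2) it was 1 with total counts, with size factors within the pair and with a pseudocount of 5, and 0 with the 4-fold rule. Between day 0 and day 3, 6707 genes and 5 members were called, 4436 and 3 without treatment in the fit, and 1214 to 8454 and 1 to 6 when a library was left out. Between day 3 and day 9, 10 genes and 0 members were called, 1319 and 2 with DESeq2, 268 and 1 without the filter, and 3 genes without treatment in the fit; leaving out a library gave 0 to 3238 genes and 0 to 4 members. For FGF8 over the 3 days, 185 genes were called, 1692 with DESeq2, 110 with DESeq2 size factors, 419 without the filter, 0 without day in the fit and 0 to 2511 when a library was left out. The cause of these shifts was not tested. No difference of a member that was called changed its sign. Total counts shifted all FGF8 to untreated differences at day 3 by -0.108, and the other scalings moved them by less than 0.1. Low counts limit Ryr1, Ryr2, Atp2a1 and Atp2a3 at day 0.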
